A study of Mus musculus with 9 samples.

Results

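The genes described here are the core of the G1 cell cycle machinery: the D cyclins Ccnd1, Ccnd2 and Ccnd3, the E cyclins Ccne1 and Ccne2, the kinases Cdk4 and Cdk6, the CDK inhibitors Cdkn1b (p27) and Cdkn2c (p18), and the pocket protein gene Rb1. They were selected by gene symbol, 10 of the 55291 genes counted, and all 10 were among the 15066 genes with enough reads to be tested. RNA came from mouse acute myeloid leukaemia (AML) cells taken from lung, from bone marrow or from culture, with 3 libraries per group and 9 in all. The lung and bone marrow cells were recovered from wild-type recipient mice. Cells of all 3 groups, the cultured ones included, carried the genotype written Trp53(R172H/delta), a missense allele of the tumour suppressor p53 over an allele labelled delta. The strain and age of the mice, the way the leukaemia was made and the way the cells were separated from their host tissue are not given in these sources, which also do not say whether replicates are separate mice or cultures. P-values therefore measure the spread between these libraries, which may be technical.

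In G1 phase, mitogens raise D cyclins, which bind CDK4 or CDK6 and begin to phosphorylate the pocket protein RB. Phosphorylated RB releases E2F factors, which switch on the E cyclins and the genes of DNA replication, and cyclin E with CDK2 completes the step into S phase. INK4 proteins such as p18, the product of Cdkn2c, bind CDK4 and CDK6, whereas CIP/KIP proteins such as p27, the product of Cdkn1b, hold cyclin E and cyclin A kinases. Blood cells are known to use CDK6 and cyclins D2 and D3 more than most tissues, and p27 is controlled largely through protein turnover, so RNA gives a partial view of it.

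Depth was 27485111 to 38761363 counted reads per library, at which 1 read is worth 0.0249 to 0.0371 CPM (counts scaled to the library size, here after TMM scaling). The labelled cell type was checked against 12 markers of myeloid leukaemia and progenitors. Kit lay between 506 and 1214 CPM and Myb between 415 and 555 CPM in the 9 libraries, and the other 10 markers were far lower. Cebpa and Flt3 stayed at or below 0.82 CPM in all 9 libraries and Cd34 at or below 2.8 CPM. Spi1 had 11.8 to 18.0 CPM in lung, 7.56 to 14.3 CPM in bone marrow and 3.09 to 4.56 CPM in culture, and Ptprc, the pan-leukocyte gene of CD45, 5.71 to 9.35, 1.79 to 17.2 and 1.31 to 2.03 CPM in the same groups. Csf1r, Itgam, Cd33, Csf3r and Mpo reached 11.3, 1.07, 1.13, 2.07 and 2.25 CPM in lung, 5.02, 7.53, 8.05, 10.96 and 58.1 CPM in bone marrow, always in library 3 of that group, and at most 0.213 CPM in culture, where Cd33 and Cebpa had no read. Klf1, an erythroid factor, lay between 261 and 334 CPM. Neutrophil markers summed to 79.9, 10.6 and 11.7 CPM in lung libraries 1, 2 and 3, to 306, 551 and 1930 CPM in bone marrow libraries 1, 2 and 3, and to 1.10 to 2.37 CPM in culture. Lung epithelial markers summed to 83, 38.2 and 14.6 CPM in lung libraries 1, 2 and 3, and to no more than 0.898 CPM in bone marrow and 1.02 CPM in culture. Endothelial markers summed to 13.8 to 43.3 CPM in lung, 6.47 to 7.44 CPM in bone marrow and 5.49 to 6.62 CPM in culture. The most abundant of these markers were Ngp, Sftpc and Vwf. Macrophage, T and NK cell, and B cell markers, led by Cd68, Nkg7 and Cd79a, each summed to at most 17.3 CPM in any library. Erythroid markers summed to 420 to 541 CPM in lung, 408 to 463 CPM in bone marrow and 772 to 803 CPM in culture, and stromal markers, mostly Col1a2, to 182 to 268 CPM in lung, 141 to 212 CPM in bone marrow and 239 to 256 CPM in culture. Bone marrow library 3 and lung library 1 thus stood apart by marker RNA of other cell types, so values without them are given where a call depends on them. Bone marrow libraries 1 and 2 (306 and 551 CPM of neutrophil markers) and lung library 2 (38.2 CPM of epithelial markers) also held such marker RNA. Leaving out 1 library thus does not remove such RNA from a comparison. Whether this RNA came from host cells or from the leukaemia cells was not tested, nor was its part in the results. In bulk RNA fewer cells of a type and less RNA per cell cannot be told apart.

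Against culture, cells of both tissues had less Cdkn1b and Rb1 RNA. Cdkn1b stood at 0.313 of its culture level in lung and 0.319 of it in bone marrow, and Rb1 at 0.448 of its culture level in lung and 0.334 of it in bone marrow. Cdk4, Ccne2 and Ccnd1 were higher in both tissues than in culture. For Ccnd1, with 2 to 18 reads per library, the call was lost in 5 of 15 alternative settings for lung and in 9 of 15 for bone marrow. The lung calls of Ccne2 and Cdk4 were lost in 3 and 2 of 17 settings, and their bone marrow calls held in all 17. Between the tissues, Ccnd2 was higher in lung than in bone marrow in each of 17 alternative settings. Rb1 was also higher and Cdk4 lower there, but the Rb1 call was lost in 4 of the 17 settings and the Cdk4 call in 9.

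**Figure D1:**
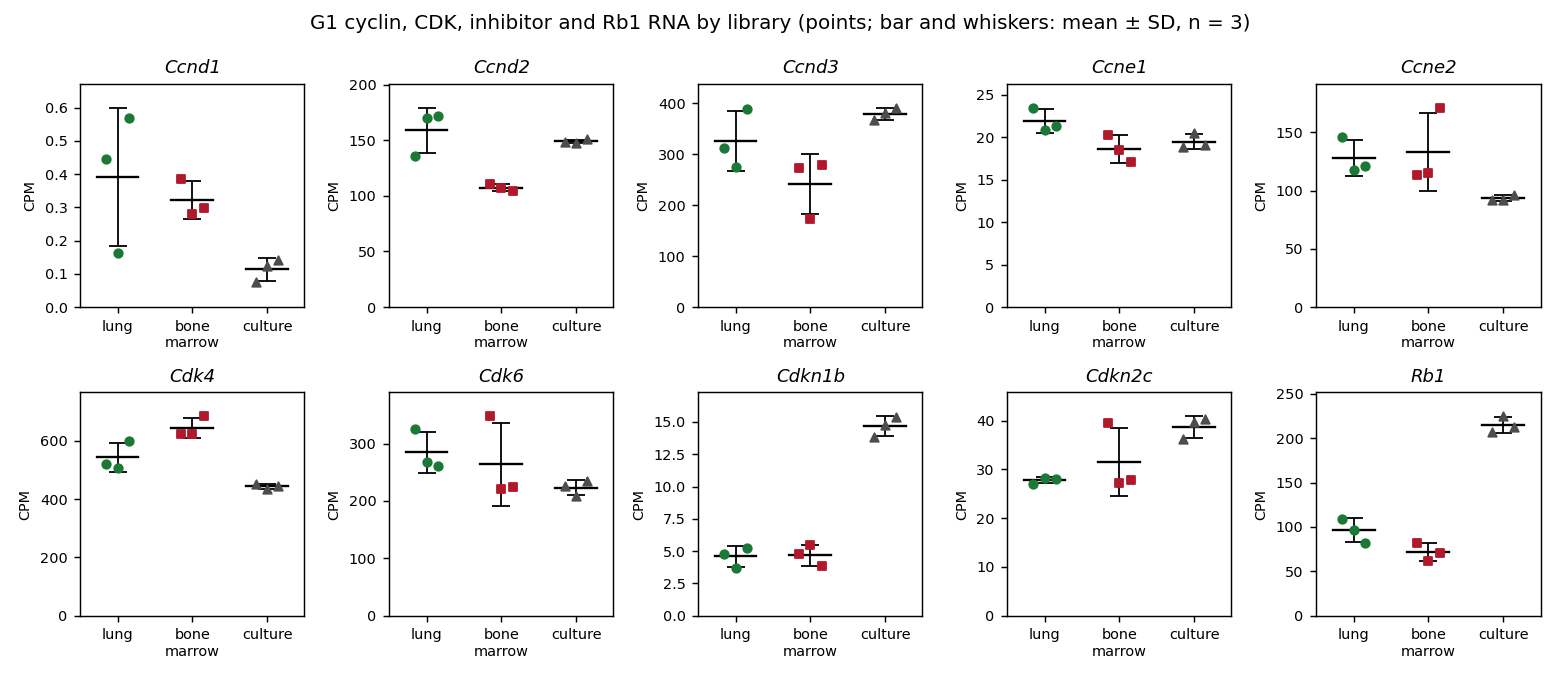
Normalised RNA level (CPM, linear axes from 0) of the 10 genes in each library, with lung, bone marrow and culture from left to right. Points are libraries 1, 2 and 3 of a group, the bar is the mean and the whiskers are ± SD (n = 3). Culture libraries lie above all tissue libraries for Cdkn1b and Rb1 and below them for Cdk4, Ccne2 and Ccnd1.

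Each comparison was a contrast in edgeR's quasi-likelihood test over all 9 libraries, and the call was an adjusted p under 0.05, by the Benjamini-Hochberg method over the 15066 genes tested. In lung against bone marrow, 2 of the 10 genes were higher, 1 was lower and 7 did not pass, where 25.3% of all genes tested passed (14.2% higher and 11.1% lower). In bone marrow against culture, 3 were higher, 4 were lower and 3 did not pass, against 60.5% of all genes (30.7% higher and 29.8% lower). In lung against culture, 3 were higher, 3 were lower and 4 did not pass, against 54.9% of all genes (27.9% higher and 27% lower). The share of the 10 genes that passed was thus near that of all genes in each comparison and is not a result about the group. The median log2 change of the 10 genes was 0.17, -0.18 and 0.13 in these 3 comparisons, and that of all genes was -0.01, 0.05 and 0.03 in the same order. Both comparisons with culture use the same 3 culture libraries, so their values are given side by side and not as independent results.

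**Figure D2:**
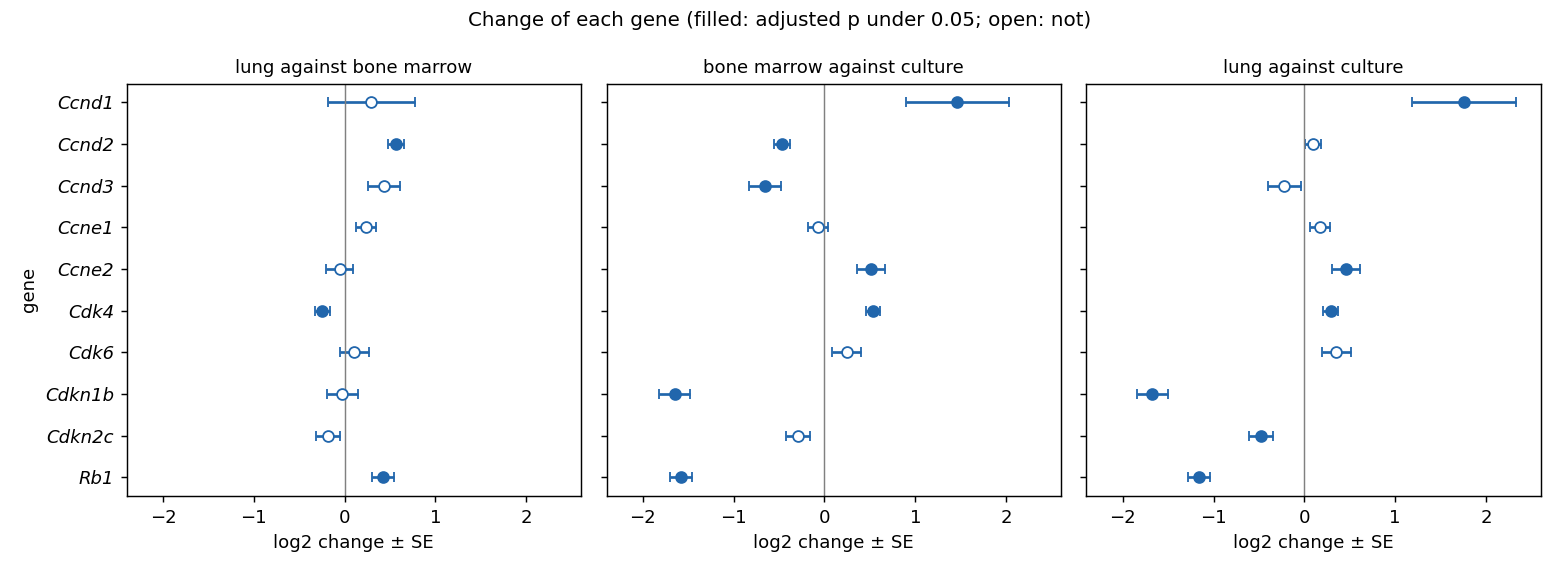
Log2 change ± SE of each gene, with a panel for each of the 3 comparisons, from 1 edgeR fit over 9 libraries. Filled points passed at an adjusted p under 0.05 and open points did not; Cdkn1b and Rb1 lie at -1.16 or lower in both comparisons with culture.

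Ccnd2 and Ccnd3, the abundant D cyclin genes, were both lower in bone marrow than in culture. Ccnd2 (chr6:127125162-127152193, minus strand; GRCm38) encodes cyclin D2, which couples growth factor signals to CDK4 and CDK6. It had 135.5, 169.6 and 172 CPM in lung, 111, 107 and 104 CPM in bone marrow, and 149, 147 and 151 CPM in culture. The bone marrow libraries lay below the other 6 and lung overlapped culture. In lung it was 1.48 times the bone marrow level (log2 change 0.565, SE 0.091, edgeR adjusted p = 0.00095). In bone marrow it was 0.722 of the culture level (log2 change -0.47, SE 0.091, edgeR adjusted p = 0.00053), and lung against culture did not pass (log2 change 0.09, adjusted p = 0.4). Both calls held in each of the 17 alternative settings.

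Ccnd3 (chr17:47505051-47599691, plus strand) encodes cyclin D3, prominent in lymphoid and erythroid precursors. It had 313, 275.5 and 389 CPM in lung, 272, 173 and 278 CPM in bone marrow, and 367, 382 and 390 CPM in culture. Bone marrow again lay below culture without overlap, with library 2 the lowest, and lung overlapped both other groups. The bone marrow level was 0.635 of the culture level (log2 change -0.655, SE 0.18, edgeR adjusted p = 0.0086), also in each of the 17 alternatives. Lung against bone marrow had a log2 change of 0.43 (SE 0.18) and an adjusted p of 0.097. It passed with no low-count filter (adjusted p = 0.00015), in DESeq2 (adjusted p = 0.028) and with the replicate block (adjusted p = 0.019). Lung against culture had a log2 change of -0.22 and an adjusted p of 0.31.

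Ccnd1 (chr7:144929931-144939925, minus strand), whose cyclin D1 is the D cyclin of many epithelia, was near the limit of detection. It had 17, 5 and 18 reads in lung, 13, 9 and 12 reads in bone marrow, and 2, 4 and 4 reads in culture, or 0.16 to 0.57 CPM in lung, 0.28 to 0.39 CPM in bone marrow and 0.07 to 0.14 CPM in culture. Both tissues lay above culture without overlap, lung library 2 by 1 read. The summed reads gave lung a ratio to culture of 3.59 (exact 95% interval 1.77 to 8.06) and bone marrow a ratio to culture of 2.94 (1.42 to 6.66), intervals that cover counting error only. The fitted test passed in lung against culture (log2 change 1.76, SE 0.57, adjusted p = 0.017) and in bone marrow against culture (1.46, SE 0.57, adjusted p = 0.04). The lung call was lost in 5 of 15 alternatives, with adjusted p of 0.05 to 0.084: DESeq2 and the fits without lung library 1 or 3 or culture library 1 or 2. The bone marrow call was lost in 9 of 15, with adjusted p of 0.051 to 0.14: no low-count filter, DESeq2 and the fits without lung library 1 or any 1 of the bone marrow or culture libraries. Lung library 1, with the highest epithelial and endothelial marker sums, had 17 of the 40 lung reads, and without it the lung log2 change was 1.66. Lung library 3, with the lowest epithelial sum (14.6 CPM), had 18 reads, and without it the log2 change against culture was 1.40 (edgeR adjusted p = 0.084). Lung library 2 had 5 reads and an epithelial sum of 38.2 CPM. The part of other cells in these reads was not tested. Of the exon length of Ccnd1, 23.4% overlaps exons of LTO1 on the other strand, and counts were made without strand, so reads there cannot be assigned; LTO1 itself averaged 15.9 ± 1.08 CPM in lung, 18.7 ± 1.90 CPM in bone marrow and 13.3 ± 2.67 CPM in culture (SD, n = 3 each).

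Per kilobase of exon, a scale on which genes can be set beside each other, the 3 D cyclins summed to 50.1, 49.5 and 62.7 CPM per kb in lung, 42.9, 31.2 and 42.8 in bone marrow, and 57.6, 59.2 and 60.5 in culture. Bone marrow lay below the other 2 groups without overlap (exact permutation test, two-sided p = 0.1 in each case, the smallest that 3 against 3 allows). Ccnd3 made up most of the D cyclin RNA, 68.4% ± 4.3 in lung, 69.8% ± 5.8 in bone marrow and 73.2% ± 0.54 in culture (SD, n = 3 each). Ccnd2 made up 31.4% ± 4.4 in lung, 30.0% ± 5.8 in bone marrow and 26.8% ± 0.55 in culture. The lung and bone marrow shares of Ccnd2 overlapped (exact p = 0.6), and lung lay above culture in 3 of 3 libraries (exact p = 0.1). Ccnd1 was 0.15% ± 0.07 of the D cyclin RNA in lung, 0.176% ± 0.025 in bone marrow and 0.0405% ± 0.012 in culture.

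**Figure D3:**
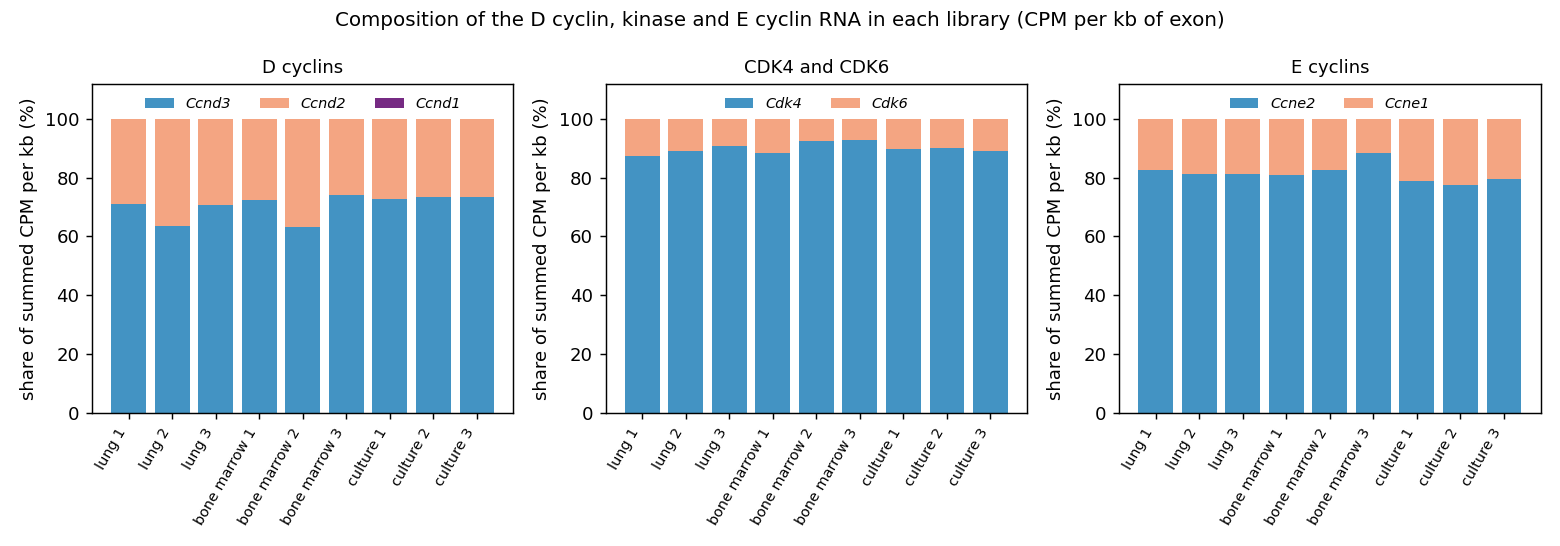
Shares (%) of the summed CPM per kb of exon taken by each D cyclin, by Cdk4 and Cdk6, and by each E cyclin, in every library from lung to bone marrow to culture. Ccnd3, Cdk4 and Ccne2 hold the larger share in all 9 libraries; Ccnd1, at 0.193% or less, is too small to be seen.

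Cdk4 (chr10:127063534-127067920, plus strand) and Cdk6 (chr5:3341485-3531008, plus strand) encode the kinases that D cyclins activate. Their RefSeq promoter windows (GRCm38.p6, 250 bases before to 50 after the annotated start, plus strand) are shown because they belong to the genes of the kinases and differ in the number of CACGTG E-boxes, the letters bound by MYC, MAX and USF proteins, which are in capitals.
Cdk4, chr10:127063285-127063584: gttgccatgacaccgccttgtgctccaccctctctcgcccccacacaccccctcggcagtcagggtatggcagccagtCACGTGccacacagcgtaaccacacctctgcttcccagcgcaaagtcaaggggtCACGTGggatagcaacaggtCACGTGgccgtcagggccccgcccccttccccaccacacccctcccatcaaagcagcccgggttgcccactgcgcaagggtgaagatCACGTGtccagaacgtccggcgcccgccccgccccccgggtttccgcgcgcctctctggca
Cdk6, chr5:3343643-3343942: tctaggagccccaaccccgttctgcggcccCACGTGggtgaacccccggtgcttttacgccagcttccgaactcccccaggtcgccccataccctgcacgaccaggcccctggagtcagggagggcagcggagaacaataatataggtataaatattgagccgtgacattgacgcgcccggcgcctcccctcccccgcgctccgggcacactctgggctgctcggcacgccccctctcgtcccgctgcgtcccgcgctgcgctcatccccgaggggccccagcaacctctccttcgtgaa
The Cdk4 window holds 4 copies and the Cdk6 window 1. Among all 32851 mouse windows of the same length in the table, 7.15% hold at least 1 CACGTG, which reads the same on both strands, and 0.0883% (29 windows) hold 3 or more. Windows were given for 6 of the 10 genes, and the other copy found was 1 in a Cdkn2c window. None of the 8 windows held an exact copy of the E2F strings TTTGGCGC, TTTCCCGC or TTTCGCGC on either strand, which 1.84% of all windows do. Other forms of the E2F site were not searched for. These matches describe the letters and show no binding.

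Cdk4 had 521, 507 and 599.9 CPM in lung, 623, 624 and 683 CPM in bone marrow, and 452.5, 436 and 444 CPM in culture. The 3 groups did not overlap, with bone marrow the highest and culture the lowest. Bone marrow was 1.45 times culture (log2 change 0.53, SE 0.082, edgeR adjusted p = 7.8e-05), in each of the 17 alternatives. Lung was 1.22 times culture (0.29, SE 0.082, adjusted p = 0.0086), a call lost without lung library 3 (log2 change 0.195, adjusted p = 0.065) or culture library 2 (0.25, adjusted p = 0.061). Lung was 0.843 of bone marrow (log2 change -0.25, SE 0.082, adjusted p = 0.041). That last call was lost in 9 of 17 alternatives: with no low-count filter (adjusted p = 0.062), in a fit of the 6 libraries alone (adjusted p = 0.098), and without lung library 1 or 2, bone marrow library 2 or 3 or any 1 culture library (log2 change -0.27 to -0.21, adjusted p = 0.057 to 0.14). Exons of Tspan31 on the other strand overlap 19.7% of the Cdk4 exon length, and Tspan31 was lower in both tissues than in culture, averaging 75.5 ± 8.41 CPM in lung, 65.2 ± 11.3 CPM in bone marrow and 110 ± 0.752 CPM in culture (SD, n = 3 each).

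Cdk6 had 325.5, 268 and 261 CPM in lung, 347, 220.4 and 225 CPM in bone marrow, and 226, 209 and 234 CPM in culture. Lung lay above culture without overlap, and the bone marrow libraries spanned both groups because library 1 was the highest of the 9. No comparison passed: the log2 change was 0.11 in lung against bone marrow (SE 0.16, edgeR adjusted p = 0.66), 0.24 in bone marrow against culture (SE 0.16, adjusted p = 0.21) and 0.35 in lung against culture (SE 0.16, adjusted p = 0.086). Without bone marrow library 1, lung against bone marrow passed (log2 change 0.35, adjusted p = 0.017) and bone marrow against culture was -0.003 (adjusted p = 0.98). Lung against bone marrow was -0.006 without bone marrow library 2 and -0.01 without library 3. Lung against culture kept its value without bone marrow library 1 (0.35) and then passed (adjusted p = 0.004). Lung against culture also passed with library size scaling (adjusted p = 0.04), with no low-count filter (0.00046), in DESeq2 (0.041), in the 6 libraries alone (0.0029) and with the replicate block (0.015), and bone marrow against culture passed with no low-count filter (0.024).

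Per kilobase of exon, Cdk4 and Cdk6 together summed to 184, 175 and 203 CPM per kb in lung, 217, 208 and 226 in bone marrow, and 155, 149 and 153 in culture, again 3 groups without overlap (exact p = 0.1 for each pair). Cdk6 was the minor share, 10.9% ± 1.8 in lung, 8.72% ± 2.4 in bone marrow and 10.4% ± 0.45 in culture (SD, n = 3 each), and no pair of groups separated (exact p = 0.3 to 0.7). That share depends on the length used, since the long untranslated regions of Cdk6 count as exon: per kilobase of coding sequence it was 32.8% in lung, 27.4% in bone marrow and 31.8% in culture.

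The E cyclins drive CDK2 late in G1. Ccne2 (chr4:11191351-11204779, plus strand) had 146, 117 and 121 CPM in lung, 113, 115 and 171 CPM in bone marrow, and 91.7, 92.1 and 96.3 CPM in culture. Both tissues lay above culture without overlap and overlapped each other, with bone marrow library 3 the highest. Lung was 1.37 times culture (log2 change 0.46, SE 0.15, edgeR adjusted p = 0.019) and bone marrow 1.43 times culture (0.51, SE 0.15, adjusted p = 0.0097). Without bone marrow library 3, which had the highest neutrophil sum, the bone marrow log2 change was 0.29 (adjusted p = 0.025). The lung call was lost without lung library 1 (0.36, adjusted p = 0.076), culture library 1 (0.41, adjusted p = 0.07) or culture library 2 (0.42, adjusted p = 0.066). Exons of Ints8 on the other strand overlap 17.4% of the Ccne2 exon length, and Ints8 was 1.22 times culture in lung (adjusted p = 0.0079).

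Ccne1 (chr7:38097984-38107534, minus strand) was lower and flatter. It had 23.5, 20.9 and 21.3 CPM in lung, 20.3, 18.5 and 17.0 CPM in bone marrow, and 18.8, 20.5 and 19.0 CPM in culture. Lung lay above the other 6 libraries by a small margin, and no comparison passed (edgeR adjusted p = 0.13 in lung against bone marrow, 0.62 in bone marrow against culture and 0.2 in lung against culture). Per kilobase of exon, Ccne2 was 81.6% ± 0.8 of the E cyclin RNA in lung, 84.0% ± 3.9 in bone marrow and 78.5% ± 1.0 in culture (SD, n = 3 each). Each tissue lay above culture in 3 of 3 libraries (exact p = 0.1), and lung and bone marrow overlapped (exact p = 0.6).

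Of the inhibitors, Cdkn1b had the larger change. Cdkn1b (chr6:134920401-134925513, plus strand) encodes p27, which stops CDK2 complexes in cells that leave the cycle. It had 4.79, 3.72 and 5.25 CPM in lung, 4.76, 5.45 and 3.85 CPM in bone marrow, and 13.8, 14.8 and 15.4 CPM in culture. The tissues overlapped each other and lay far below culture. The log2 change was -1.67 in lung against culture (SE 0.17, edgeR adjusted p = 3.1e-06) and -1.65 in bone marrow against culture (SE 0.17, adjusted p = 2.5e-06). Both calls held in each of the 17 alternatives, among them the fits without lung library 1 (-1.70 in lung) and without bone marrow library 3 (-1.52 in bone marrow). Lung against bone marrow had a log2 change of -0.03 (SE 0.17, adjusted p = 0.93).

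Cdkn2c (chr4:109660876-109667189, minus strand) encodes p18, an INK4 protein. It had 27.1, 28.3 and 28.1 CPM in lung, 39.6, 27.3 and 27.9 CPM in bone marrow, and 36.2, 39.6 and 40.2 CPM in culture. Lung lay below culture, and bone marrow library 1 was at the culture level while the other bone marrow libraries were at the lung level. Lung was 0.719 of culture (log2 change -0.48, SE 0.13, edgeR adjusted p = 0.0073), in each of the 17 alternatives. Bone marrow against culture did not pass (-0.29, SE 0.13, adjusted p = 0.066) but did without bone marrow library 1 (-0.49, adjusted p = 0.00094), and lung against bone marrow had a log2 change of -0.18 (adjusted p = 0.33).

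Most of the other CDK inhibitor genes tested were lower in the tissues than in culture. Of 5 listed, Cdkn1c had 8 reads in all, each of them in lung, and was not tested. In lung against culture 4 of 4 were lower, with a median log2 change of -1.25, and in bone marrow against culture 3 of 4 were lower, with a median of -1.83; 27% and 29.8% of all genes were lower in these comparisons. Cdkn2d, which encodes the INK4 protein p19, had 32.5, 33.7 and 32.9 CPM in lung, 31.3, 26.9 and 33.1 CPM in bone marrow, and 85.4, 90.6 and 90.4 CPM in culture, with both tissues below culture (log2 change -1.43 for lung, adjusted p = 5.7e-08, and -1.54 for bone marrow, adjusted p = 1.9e-08). Cdkn2b, which encodes p15, averaged 5.80 ± 0.058 CPM in lung, 4.52 ± 0.912 CPM in bone marrow and 19.7 ± 0.716 CPM in culture (SD, n = 3 each), and both tissues passed (adjusted p = 6.4e-07 for lung and 9.7e-08 for bone marrow). Cdkn2a, whose counts join the transcripts of p16 and ARF, had a log2 change of -0.45 in lung against culture (adjusted p = 0.02), a call lost without lung library 3 (adjusted p = 0.069) or culture library 1 (0.064). In bone marrow against culture it was -0.36 and did not pass (adjusted p = 0.05), although it did in 5 of 17 alternatives.

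Cdkn1a, the gene of the CIP/KIP inhibitor p21 and a classical p53 target, differed in all 3 comparisons. It had 16.7, 21.1 and 11.5 CPM in lung, 2.56, 1.33 and 1.02 CPM in bone marrow, and 35.1, 32.7 and 36.4 CPM in culture, 3 groups without overlap. Lung was 10.1 times bone marrow (log2 change 3.34, SE 0.31, edgeR adjusted p = 7.6e-05). Lung was 0.474 of culture (-1.08, SE 0.26, adjusted p = 0.005), and bone marrow was 0.0468 of culture (-4.42, SE 0.32, adjusted p = 8.4e-07). It was the 1 inhibitor outside the 10 genes that passed between the tissues; Cdkn2a, Cdkn2b and Cdkn2d had log2 changes of -0.09, 0.36 and 0.12 in lung against bone marrow (adjusted p = 0.68, 0.10 and 0.38).

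**Figure D4:**
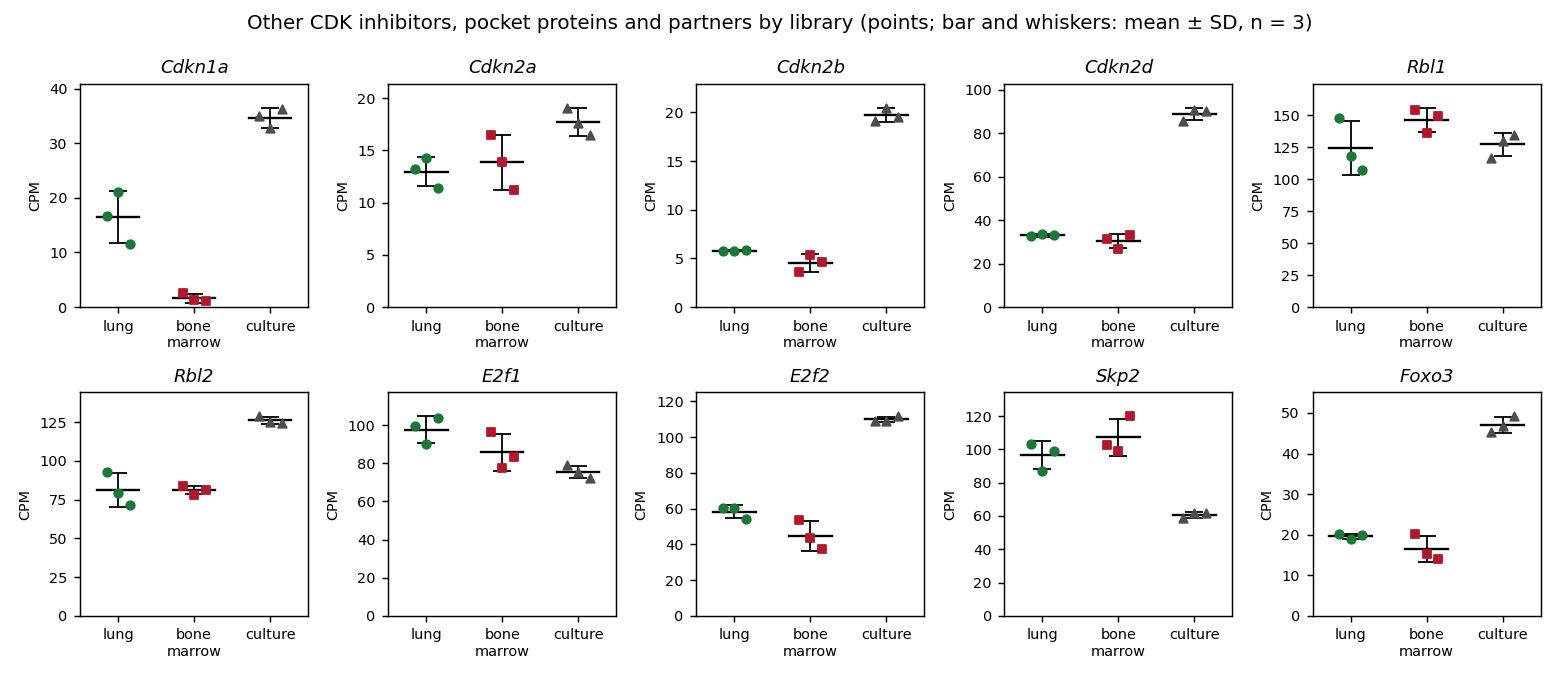
Normalised RNA level (CPM, linear axes from 0) of 4 other CDK inhibitors, the pocket proteins Rbl1 and Rbl2, E2f1, E2f2, Skp2 and Foxo3 in each library of lung, bone marrow and culture; genes were chosen for this plot after their values were seen. Points are libraries, the bar is the mean and the whiskers are ± SD (n = 3); Cdkn1a forms 3 separate levels, and Cdkn2b, Cdkn2d, Rbl2, E2f2 and Foxo3 are highest in culture.

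Rb1 (chr14:73183673-73325822, minus strand), the target of the D cyclin kinases, had 109, 97.1 and 82.1 CPM in lung, 82.5, 62.1 and 70.2 CPM in bone marrow, and 207, 224.5 and 212 CPM in culture. Culture lay far above both tissues, and lung library 3 fell just below bone marrow library 1. The log2 change was -1.16 in lung against culture (SE 0.12, edgeR adjusted p = 2.4e-06) and -1.58 in bone marrow against culture (SE 0.12, adjusted p = 1.2e-07), in each of the 17 alternatives. Lung was 1.34 times bone marrow (0.42, SE 0.12, adjusted p = 0.017), a call lost in the 6 libraries alone (0.425, adjusted p = 0.051), without lung library 1 (0.33, adjusted p = 0.07), without lung library 2 (0.40, adjusted p = 0.067) and without bone marrow library 2 (0.33, adjusted p = 0.076). Rcbtb2 and Lpar6 lie on the other strand and overlap 8.11% and 6.78% of the Rb1 exon length. Both moved opposite to Rb1: Rcbtb2 averaged 57.4 ± 3.15 CPM in lung, 72.0 ± 5.51 CPM in bone marrow and 27.5 ± 1 CPM in culture (SD, n = 3 each), and Lpar6 was at or below 6.63 CPM in all 9 libraries.

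The other pocket protein and E2F genes moved in both directions. Of 12, E2f2 alone passed between the tissues, 1 gene where 14.2% of all genes were higher in lung. Against culture, 5 were higher and 3 lower in lung (27.9% and 27% of all genes), and 2 were higher and 4 lower in bone marrow (30.7% and 29.8% of all genes). The number higher in lung than in bone marrow was 3 without bone marrow library 1, 2 in 3 settings and 0 in 6, and 1 gene was lower without lung library 1. The number higher in lung than in culture was 3 without lung library 3 or culture library 1 or 2, and the number higher in bone marrow than in culture was 4 with upper-quartile or library size scaling. Rbl2, which encodes the pocket protein p130 of resting cells, was lower in both tissues, at 81.2 ± 10.9 CPM in lung, 81.2 ± 2.87 CPM in bone marrow and 126 ± 2.24 CPM in culture (SD, n = 3 each; edgeR adjusted p = 6.9e-05 for lung and 5.4e-05 for bone marrow). Rbl1, which encodes p107, averaged 124 ± 20.9 CPM in lung, 146 ± 9.42 CPM in bone marrow and 127 ± 9.3 CPM in culture and passed in no comparison (adjusted p = 0.12 to 0.82). Without lung library 1, however, Rbl1 was lower in lung than in bone marrow (adjusted p = 0.018). It was higher in bone marrow than in culture with upper-quartile scaling (adjusted p = 0.043), library size scaling (0.044) and in the 6 libraries alone (0.045). E2f2, an activating E2F, averaged 58.2 ± 3.56 CPM in lung, 44.9 ± 8.35 CPM in bone marrow and 110 ± 1.41 CPM in culture. It was lower in both tissues (log2 change -0.92 for lung, adjusted p = 1.6e-05, and -1.29 for bone marrow, adjusted p = 5.8e-07) and higher in lung than in bone marrow (0.38, adjusted p = 0.028). That last call was lost in 7 of 17 settings (adjusted p = 0.059 to 0.11): the 6 libraries alone and the fits without lung library 1 or 2, bone marrow library 2 or 3 or culture library 1 or 2. E2f4, the main E2F of pocket protein repressor complexes, was higher than in culture in lung (0.69, adjusted p = 1.6e-05) and in bone marrow (0.56, adjusted p = 8.1e-05). So was its dimer partner Tfdp1 (0.65 in lung, adjusted p = 4.1e-05, and 0.73 in bone marrow, adjusted p = 1.1e-05).

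Genes that act on the G1 machinery from outside it also split. Of 7 tested genes of the CDK2 module, 2 were higher in lung than in bone marrow and 2 lower (14.2% and 11.1% of all genes). Against culture, 3 were higher and 2 lower in lung (27.9% and 27% of all genes), and 2 were higher and 3 lower in bone marrow (30.7% and 29.8% of all genes). The number higher in lung than in bone marrow was 1 without lung library 3 or bone marrow library 2 or 3, and that higher in lung than in culture was 1 without culture library 1 or 2. The number lower in bone marrow than in culture was 1 with upper-quartile or library size scaling and without bone marrow library 2 or culture library 2 or 3. Ccna2, the cyclin A gene that follows cyclin E, had 255, 252 and 281 CPM in lung, 328, 244 and 262 CPM in bone marrow, and 548, 554 and 582.5 CPM in culture (log2 change -1.10 for lung, adjusted p = 1.2e-06, and -1.01 for bone marrow, adjusted p = 1.7e-06). Wee1, a kinase that inhibits CDKs, was 1.78 times as high in lung as in bone marrow (adjusted p = 0.0031), while Cdk7, of the CDK-activating kinase, was 0.71 of it (adjusted p = 0.0061). Ccnh, the cyclin of that kinase, was 1.18 times culture in lung (adjusted p = 0.012, lost without culture library 1 or 2 at 0.074 and 0.11) and 1.48 times culture in bone marrow (adjusted p = 1.4e-05). Cdc25a, the phosphatase that releases CDK2, was 1.37 times culture in lung (adjusted p = 0.0033) and did not pass in bone marrow against culture (log2 change 0.055, adjusted p = 0.68).

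Among 11 tested genes for the turnover of D cyclins, E cyclins and p27, 2 were higher in lung than in bone marrow and 3 were lower (14.2% and 11.1% of all genes). The comparisons with culture had 2 higher and 1 lower for lung (27.9% and 27% of all genes), and 4 higher and 5 lower for bone marrow (30.7% and 29.8%). The 2 higher in lung than in bone marrow became 0 without lung library 2 and 1 in 8 other settings, among them the fits without lung library 1 or 3, bone marrow library 3 or any 1 culture library. The 3 lower became 1 in the 6 libraries alone and without lung library 1 or 2 or bone marrow library 2. Over all 17 settings the number lower ranged from 1 to 4, and the calls of Cks1b and Rbx1 were lost in 9 and 4. The 5 lower in bone marrow than in culture became 3 with upper-quartile scaling and without bone marrow library 2 or 3 or culture library 3. Skp2, whose ligase marks p27 for destruction, had 103, 87.2 and 99.2 CPM in lung, 103, 98.8 and 119.9 CPM in bone marrow, and 58.6, 61.8 and 61.8 CPM in culture. Both tissues lay above culture (log2 change 0.67 for lung, adjusted p = 5e-05, and 0.82 for bone marrow, adjusted p = 6.4e-06). Its cofactor Cks1b was lower in both tissues than in culture (-0.545 for lung, adjusted p = 9.3e-05, and -0.295 for bone marrow, adjusted p = 0.0072). Skp1a, the adaptor of the same ligase, was 1.34 times culture in lung (adjusted p = 0.0011) and 1.89 times culture in bone marrow (adjusted p = 1e-06), and lung was 0.707 of bone marrow (adjusted p = 0.0015). Fbxw7, which marks cyclin E, was 0.657 of culture in bone marrow (adjusted p = 0.00014) and 1.32 times bone marrow in lung (adjusted p = 0.01; log2 change 0.33 to 0.48 over the alternatives, with an adjusted p of 0.057 without lung library 2).

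Of 9 upstream regulators, 1 was higher and 1 lower when lung was set against bone marrow (14.2% and 11.1% of all genes). When set against culture, 2 were higher and 3 lower in lung (27.9% and 27% of all genes), and 3 were higher and 3 lower in bone marrow (30.7% and 29.8%). Foxo3, a transcription factor known to raise Cdkn1b and Rbl2, had 20.1, 18.9 and 19.9 CPM in lung, 20.2, 15.2 and 14.0 CPM in bone marrow, and 45.3, 46.7 and 49.2 CPM in culture. It was 0.417 of culture in lung (log2 change -1.26, adjusted p = 2.3e-06) and 0.349 of it in bone marrow (-1.52, adjusted p = 3.4e-07). Akt1, the kinase that keeps FOXO factors out of the nucleus, was 1.58 times culture in lung (adjusted p = 3.7e-05) and 1.35 times in bone marrow (adjusted p = 0.0011). Stat5a, a factor downstream of cytokine receptors, was 1.29 times culture in lung (adjusted p = 0.0023) and 1.45 times in bone marrow (adjusted p = 9.4e-05). Its paralogue Stat5b, more abundant in culture (287 against 109 CPM), moved the other way. The log2 change of Stat5b was -0.33 in bone marrow against culture, a call held in all 17 settings. It was -0.24 in lung against culture, a call lost in 5 of 17. Myc, which is known to drive Ccnd2 and Cdk4, was 0.753 of the bone marrow level in lung (adjusted p = 0.0026), and Mtor was 1.22 times that level (adjusted p = 0.048). The Mtor call was lost in 10 of 17 settings (log2 change 0.16 to 0.37 over all of them, adjusted p up to 0.29): upper-quartile and library size scaling, the 6 libraries alone, and the fits without lung library 1 or 2, bone marrow library 2 or 3 or any 1 culture library. Without bone marrow library 1, 3 of the 9 regulators were higher in lung than in bone marrow, and in DESeq2 2 were.

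Downstream, 18 E2F targets of S phase included genes that passed in either direction in each comparison. Relative to bone marrow, 1 was higher and 3 lower in lung (14.2% and 11.1% of all genes). Relative to culture, 5 were higher and 2 lower in lung (27.9% and 27% of all genes), and 6 were higher and 5 lower in bone marrow (30.7% and 29.8%). The number higher in lung than in bone marrow was 6 without bone marrow library 1 and 0 in 8 settings, those in which the Mcm2 call below was lost. The number lower in lung than in culture ranged from 1 (without lung library 1 or 2 or culture library 3) to 5 (without bone marrow library 1), with 4 without bone marrow library 2 or 3 and in the 6 libraries alone, where 8 were higher. With upper-quartile scaling 5 were lower in lung than in bone marrow. The number lower in bone marrow than in culture was 3 with upper-quartile scaling and without bone marrow library 2 or culture library 2 or 3. Tyms, for thymidylate synthesis, was 1.52 times culture in lung (adjusted p = 1.4e-05) and 1.99 times in bone marrow (adjusted p = 1.3e-07). Mcm2, of the replicative helicase, was 0.716 of culture in bone marrow (adjusted p = 0.00065) and 1.25 times bone marrow in lung (adjusted p = 0.027). The Mcm2 call between the tissues was lost in the 6 libraries alone and without any 1 of the lung libraries, bone marrow library 2 or 3 or culture library 1 or 2 (adjusted p = 0.058 to 0.11). Rrm1, of ribonucleotide reductase, was 0.732 of culture in lung (adjusted p = 0.00062) and 0.807 of it in bone marrow (adjusted p = 0.0071), and Tk1, thymidine kinase, was 0.744 of bone marrow in lung (adjusted p = 0.0032).

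Genes of G2 and mitosis moved mostly one way. Of 12, 11 were lower in lung against culture (median log2 change -1.05) and 11 in bone marrow against culture (median -0.74), where 27% and 29.8% of all genes were lower. Mki67, the proliferation antigen Ki-67, had 214, 222 and 202 CPM in lung, 257, 149.8 and 169 CPM in bone marrow, and 622, 592 and 598 CPM in culture. It was 0.353 of culture in lung (adjusted p = 1.8e-05) and 0.318 of it in bone marrow (adjusted p = 6.9e-06). The exception in bone marrow against culture was Birc5, the gene of survivin, at 1.18 times culture (adjusted p = 0.022), a call that was lost without bone marrow library 1 or any 1 of the culture libraries. In lung against bone marrow 6 of 12 were lower (11.1% of all genes), led by Cdk1, the mitotic kinase, at 0.619 of the bone marrow level (adjusted p = 0.00016). That number was 4 to 8 over the 17 settings, and the Cdk1 call held in each of them. Plk1 and Aurka lost their calls in 7 and 3 settings, including that without lung library 1 (adjusted p = 0.16 and 0.07). Mki67 did not pass (log2 change 0.151) but was higher in lung without bone marrow library 1 (adjusted p = 0.0021).

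**Figure D5:**
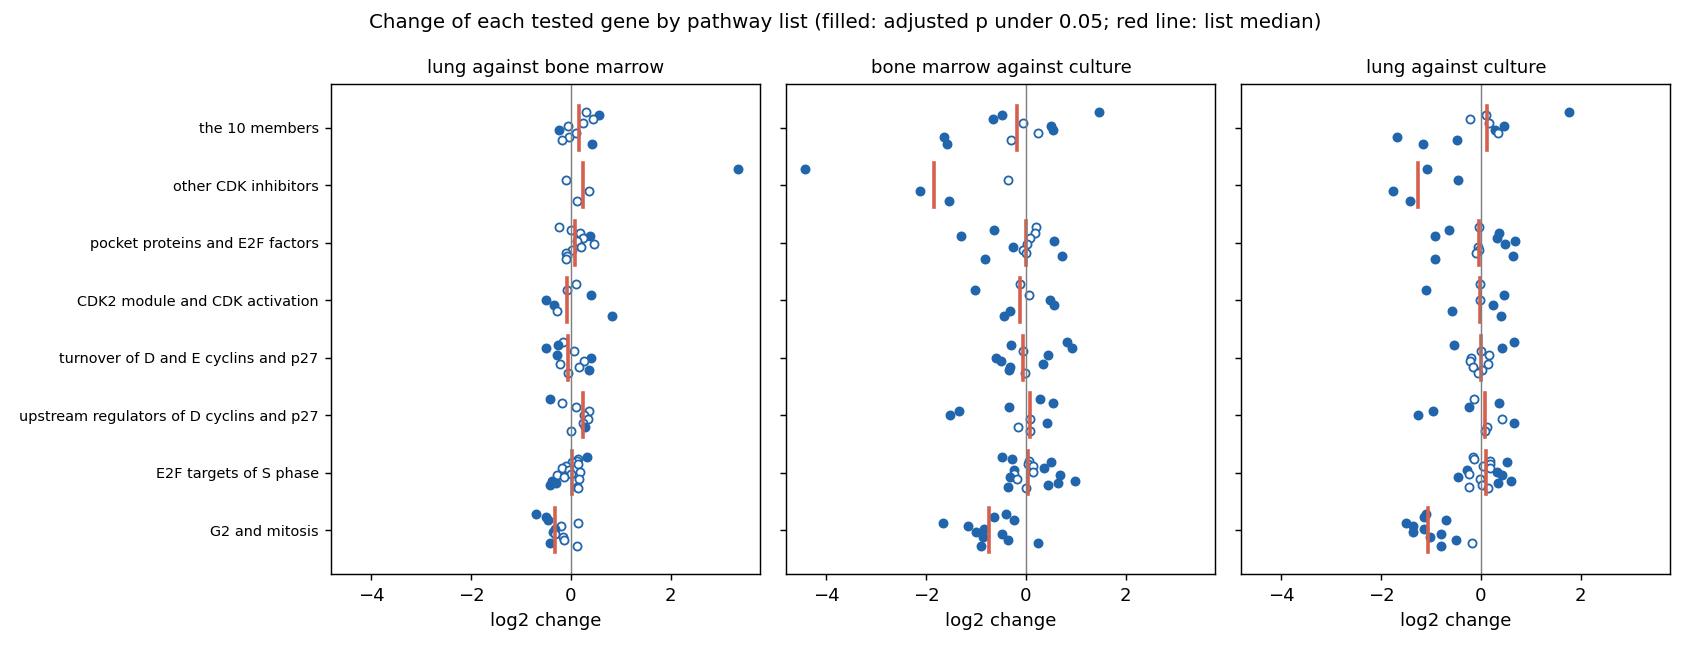
Log2 change of each tested gene, with a panel for each of the 3 comparisons, by list, from the 10 genes at the top to G2 and mitosis at the bottom. Filled points passed at an adjusted p under 0.05, open points did not, and the red line is the list median; G2 and mitosis genes and the other CDK inhibitors lie mostly left of 0 in both comparisons with culture.

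Set beside each other per kilobase of exon, Cdk4 was the most abundant of the 10 genes in each group, at 167 ± 15.5 CPM per kb in lung, 198 ± 10.7 in bone marrow and 137 ± 2.52 in culture (SD, n = 3 each). In lung, Ccnd3 (37.1) and Ccne2 (36.7) came next with overlapping libraries, then Cdk6 (20.4), then Ccnd2 (16.9) and Rb1 (16.0), which overlapped, then Cdkn2c (10.4), Ccne1 (8.21), Cdkn1b (1.01) and Ccnd1 (0.0834). In bone marrow the order was Ccne2 (38.1), then Ccnd3 (27.5) and Cdk6 (18.9), which overlapped, then Rb1 (11.9), Cdkn2c (11.8) and Ccnd2 (11.4), neighbours of which overlapped, then Ccne1 (6.98), Cdkn1b (1.03) and Ccnd1 (0.0682). In culture, Rb1 (35.7) stood between Ccnd3 (43.3) and Ccne2 (26.7), followed by Cdk6 (16.0) and Ccnd2 (15.8), which overlapped, and by Cdkn2c (14.4), Ccne1 (7.30), Cdkn1b (3.22) and Ccnd1 (0.024). Among inhibitors on the same scale, Cdkn2d was highest in each group, at 21.0 ± 0.393 in lung, 19.3 ± 2.01 in bone marrow and 56.4 ± 1.86 in culture. Cdkn1b thus lay below Cdkn2c, Cdkn2a, Cdkn2b and Cdkn2d in all 3 groups, although below Cdkn1a in lung and culture only. Per kilobase of coding sequence Cdk4 stayed first, and Cdk6 moved up to the third place in lung and culture and the second in bone marrow. Ccne2 moved down to place 5 in lung and bone marrow and 6 in culture, below Ccnd2 in each group (with overlap in bone marrow). Rb1 moved from place 3 to 5 in culture, where Cdkn1b (24.8) passed Ccne1 (14.6). Cdkn2d was the highest inhibitor in lung and culture only. In bone marrow Cdkn2c had 62.6 ± 13.7 and Cdkn2d 60 ± 6.25. In culture Cdkn1b (24.8 ± 1.31) and Cdkn2a (25.5 ± 1.9) were close.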

How the data were processed

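RNA was extracted with the RNeasy Plus Micro kit, amplified with SMART-seq v4 and made into libraries with ThruPLEX, per the labels' protocols. The authors used bcl2fastq and STAR with the mouse build mm10, per the submitters' processing notes; versions, the counting tool and its annotation are not given in these sources. What the authors deposited are unnormalised counts for each gene symbol, 27485111 to 38761363 counts per library, and the authors counted without strand, per the names of the deposited files.

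Low counts were removed with filterByExpr, libraries were scaled by TMM (factors 0.9658 to 1.039), and all 9 libraries entered 1 edgeR 4.0.16 quasi-likelihood fit (robust, two-sided) in R 4.3.3; an adjusted p comes from this fit, with Benjamini-Hochberg adjustment over 15066 genes, unless the sentence names another setting, whose p is adjusted over the genes tested there (11363 to 30802; DESeq2 was version 1.42.0). Levels are CPM on TMM-scaled library sizes. Positions, exon lengths and coding lengths come from GENCODE M21 (GRCm38). Shares were compared with exact permutation tests. The genes, lists and alternatives were chosen with earlier results of these data known. Text names all 10 genes. From each pathway list it names, per comparison and direction, the passing gene of largest change at 10 CPM or more in the higher group. It names the most abundant gene of a marker list where used, and other genes were chosen after their values were seen. Marker genes for 9 cell types were summed in CPM. The steps were run on simulated data with 200 changed genes. In the real comparisons 3806 to 9116 genes passed, so that run does not show how the scaling fares under such wide change. No pair of libraries of a group agreed within sampling noise (chi-square per degree of freedom 3.86 or more).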

Additional observations from a re-analysis of the deposited data

How the results depend on the processing

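The alternatives changed the scaling (library size, RLE or upper quartile), the filter (none, or at least 1 CPM in 6 libraries), the tool (DESeq2) or the libraries (the 6 compared, the replicate block, or 1 of 9 left out). Of 505 values for the 10 genes under 17 settings, 452 kept their direction and side of the threshold, 32 lost the call, 12 gained one and 9 changed sign. None of the 9 had passed. In lung against bone marrow they were Cdkn1b without lung library 2 (log2 change 0.088) or bone marrow library 2 (0.094), Ccnd1 without lung library 3 (-0.054), Cdkn2c without bone marrow library 1 (0.01), Ccne2 without bone marrow library 3 (0.153), and Cdk6 without bone marrow library 2 (-0.006) or 3 (-0.013). Over the 9 fits that leave out 1 library, the other end of the range was -0.169 for Cdkn1b, 0.636 for Ccnd1, -0.283 for Cdkn2c, -0.161 for Ccne2 and 0.354 for Cdk6. In bone marrow against culture they were Cdk6 without bone marrow library 1 (-0.003; highest 0.358 without library 2) and Ccne1 with upper-quartile scaling (0.005). Lost and gained calls stand with each gene in the report, and the cause was not tested. For counts of the pathway lists, the settings named are those with the larger shifts, and smaller shifts are left out.

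In lung against bone marrow, 1 of the 10 genes was higher and 0 lower in the 6 libraries alone, where 1400 of all genes were higher and 981 lower, and 0 were lower with no low-count filter. Leaving out 1 library gave 1 to 3 higher and 0 to 1 lower among the 10 genes, and 928 to 2084 of all genes lower. In lung against culture, leaving out 1 library gave 0 to 4 of the 10 genes higher (0 without culture library 2). Upper-quartile scaling gave 1796 genes higher and 2088 lower in lung against bone marrow, against 2138 and 1668 with TMM.

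Shares of summed CPM moved with the length used. Per coding length and with no length correction, Cdk6 was 32.8% and 34.5% of the kinase RNA in lung, 27.4% and 28.9% in bone marrow, and 31.8% and 33.4% in culture. Ccne2 was 86.5% and 85.4% of the E cyclin RNA in lung, 88.3% per coding length in bone marrow, and 84.0% and 82.8% in culture, and Ccnd2 was 29.6% and 28.2% of the D cyclin RNA in culture.

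Replicate numbers were not treated as pairs. Same-numbered lung and bone marrow libraries deviated together with correlations of 0.03, 0.27 and 0.09, and differently numbered ones with -0.24 to 0.14. With 3 libraries per group, these values cannot decide whether the numbers mark pairs. With the replicate block, 4133 genes passed in lung against bone marrow (3806 without it), 9228 in bone marrow against culture (9116) and 8433 in lung against culture (8271). Ccnd3 (lung against bone marrow) and Cdk6 (lung against culture) gained a call. Depth limits Ccnd1, with 2 to 18 reads per library.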
